A study of Mus musculus with 24 samples.

Results

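The 32 genes described here mark myelinating oligodendrocytes, the glial cells that wrap axons in myelin. They were chosen by name, as markers of that cell type. All 32 were found among 52352 genes with a placed transcript, and all 32 passed the filter on low counts, which 18239 genes passed. By role they comprise 15 genes of the myelin sheath (Mbp, Mag, Mog, Mobp, Cnp, Mal, Pllp, Cldn11, Opalin, Ermn, Tspan2, Gjb1, Hapln2, Evi2a and Gpr37), 7 of lipid and other metabolism or transport (Ugt8a, Fa2h, Aspa, Qdpr, Car2, Trf and Apod), 3 transcription factors (Sox10, Myrf and Nkx6-2), 2 genes of newly formed oligodendrocytes (Enpp6 and Bcas1) and 5 others (Anln, Gsn, Ppp1r14a, Cryab and Il33).

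Poly-A RNA from the frontal cortex of 24 mice was sequenced in bulk. Per the labels, the cross joined Grn+/- mice, which have 1 working copy of the progranulin gene, to a transgenic line (hTDP), in which human TDP-43 is expressed, and the litters gave 4 genotypes: Grn+/+ without the transgene (9.44 to 10.79 months old), Grn+/+ with it (9.44 to 10.07 months), Grn+/- without it (8.19 to 10.79 months) and Grn+/- with it (9.44 to 10.07 months). Each group held 6 mice, 3 females and 3 males, and each library is 1 mouse. The promoter that drives the transgene, which decides the cells that express it, is not given in the sources used here. The series title names an interaction between low progranulin and TDP-43, so the central comparison is whether the transgene effect differs between the Grn genotypes.

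Oligodendrocytes arise from precursor cells, extend sheets of membrane around axons and compact them into myelin. Mbp holds the cytoplasmic faces of the sheath together, Mag and Mog sit on its inner and outer surfaces, and the transcription factors Sox10 and Myrf switch on and maintain the genes of the sheath. In cortex the cells and their myelin are unevenly spread: deep layers and the white matter beneath hold far more than upper layers. In bulk tissue, fewer oligodendrocytes and less of these RNAs per oligodendrocyte cannot be told apart.

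Libraries held 61445842 to 100859149 estimated reads. Progranulin reads were 33.99 to 59.5 CPM (counts scaled to a common library total) in Grn+/+ and 13.5 to 32.1 CPM in Grn+/- libraries, and human TARDBP reads were 63.9 to 81.5 CPM in transgenic and at most 0.0303 CPM in non-transgenic libraries, as labelled. One library stood apart: replicate 2 of transgenic Grn+/+ mice listed 17669 genes above 0, against at least 22269 in the others. Replicate numbers only name the mice.

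The start-site regions of 23 of the 32 genes were matched in the RefSeq promoter table (GRCm38.p6), and they were searched for short motifs of the kind bound by Sox10 (AACAAT and ACAAAG) and Myrf (CTGGCAC and CTGGTAC), on both strands, in the 250 bases before the start. A Sox motif lay in 10 of the 23 genes and in 26.8% of all genes with a promoter in the table; a Myrf motif lay in 4 (Cnp, Hapln2, Mag and Mog) and in 6.79% of all genes. Both kinds lay in 3 of the 23, against 1.64% of all genes. Those 3 windows are shown because they hold the letters of both regulators that are themselves among the 32 genes. They run 5′ to 3′ on the gene's strand and end at the base before the start, and capitals mark the motifs, or their reverse complements. Cnp lies at chr11:100574689-100574938 on the plus strand, Hapln2 at chr3:88027512-88027761 on the minus strand, and Mag, at the most upstream of its listed starts with both motifs, at chr7:30914923-30915172 on the minus strand. A match is a description of letters, not evidence of binding.
Cnp: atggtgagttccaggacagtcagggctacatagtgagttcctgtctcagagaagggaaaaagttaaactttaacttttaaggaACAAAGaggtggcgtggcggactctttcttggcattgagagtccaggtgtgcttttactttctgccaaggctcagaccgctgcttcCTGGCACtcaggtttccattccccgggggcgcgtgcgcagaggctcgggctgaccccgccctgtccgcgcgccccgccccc
Hapln2: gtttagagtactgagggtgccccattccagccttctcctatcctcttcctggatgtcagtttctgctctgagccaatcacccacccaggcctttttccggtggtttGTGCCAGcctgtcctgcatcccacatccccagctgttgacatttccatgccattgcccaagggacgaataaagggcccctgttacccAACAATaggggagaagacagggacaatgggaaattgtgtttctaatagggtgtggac
Mag: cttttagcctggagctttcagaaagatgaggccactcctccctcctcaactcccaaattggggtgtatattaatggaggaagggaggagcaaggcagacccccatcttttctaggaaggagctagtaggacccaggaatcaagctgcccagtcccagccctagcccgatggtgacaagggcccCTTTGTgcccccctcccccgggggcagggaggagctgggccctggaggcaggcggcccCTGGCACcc

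The 32 genes varied strongly from mouse to mouse, and they did so together. Their summed level ran from 1455 to 5823 CPM, from here on scaled by library, which is 0.146% to 0.582% of the scaled reads. Between the lowest and highest of the 24 libraries a member's level differed 1.99-fold (Car2, a carbonic anhydrase) to 7.06-fold (Opalin, a membrane glycoprotein of the myelin paranode), with a median of 4.50-fold. Among the 9813 tested genes with a mean of at least 10 CPM the median was 1.33-fold. Within that set, 27 members had a median of 4.09-fold, which 65 of the 9813 genes (0.662%) reached. Those 65 include the members at or above their own median.

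All 32 members had their highest value in the same library, Grn+/- replicate 2 without the transgene, a female of 10.79 months. Their lowest value fell in transgenic Grn+/- replicate 6 for 14 genes, in Grn+/+ replicate 3 without the transgene for 11, and in 3 other libraries for the remaining 7. Over the 496 pairs of members, Pearson's r of log2 CPM across the 24 libraries ranged from 0.73 to 0.99 with a median of 0.95. Each gene's r with the mean of the other 31 was above 0.9 for 31 genes and highest for Mog (0.996). Apod, a lipid-binding lipocalin that is also made outside oligodendrocytes, had the lowest value (0.82). These correlations are descriptions: all points share libraries and their depth.

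**Figure D1:**
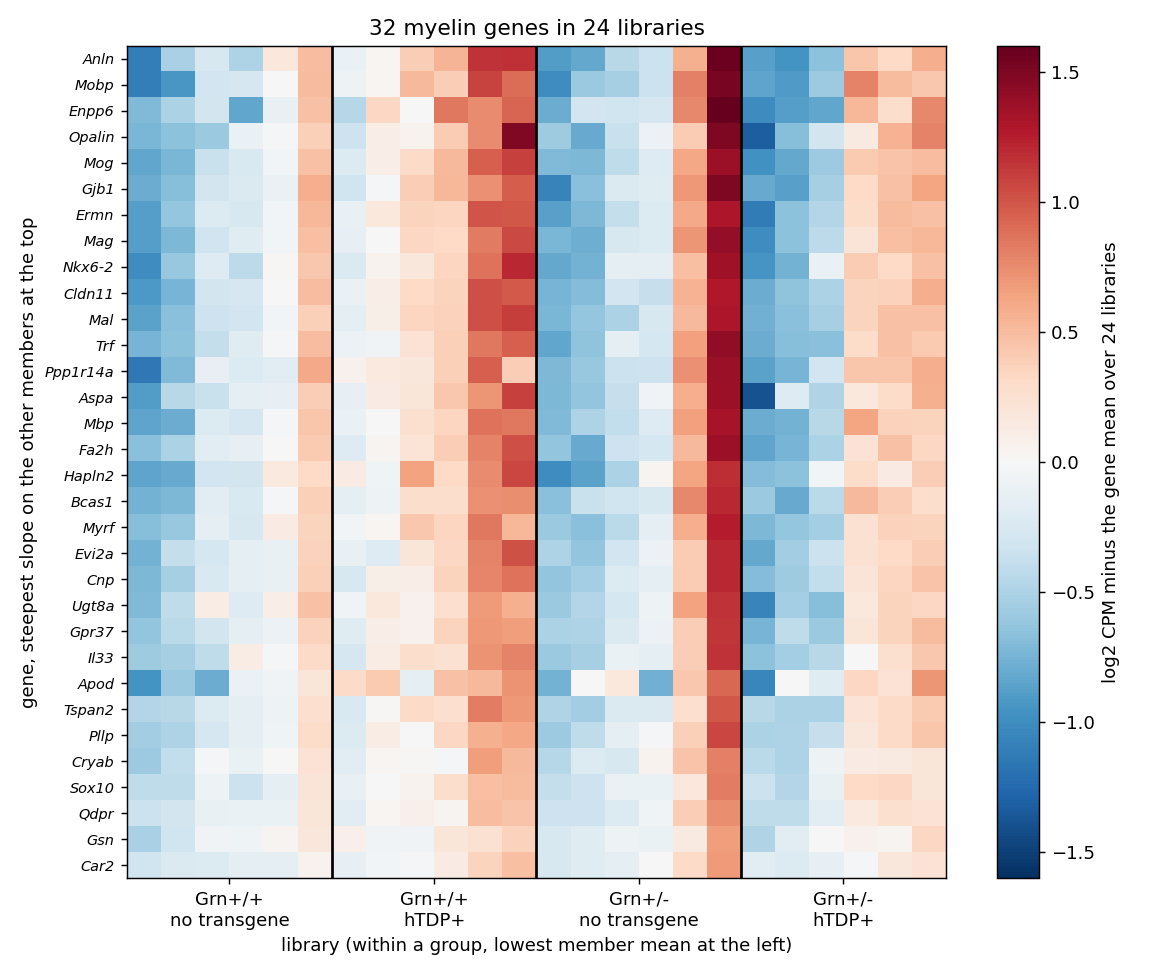
Each row is 1 of the 32 genes, ordered by slope, and each column 1 of the 24 libraries, grouped by genotype and ordered within a group by the mean of the members. Colour gives log2 CPM minus that gene's mean. Whole columns change colour together, and the dark red column is Grn+/- replicate 2 without the transgene, the highest library for all 32 genes.

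The members differed in how steeply they followed the common pattern. A slope of 1 means that a gene's log2 level moves as much as the mean of the other members. Slopes were steepest for Anln (1.36), an actin-binding scaffold of the myelin sheath, Mobp (1.35), a structural protein of compact central myelin, and Enpp6 (1.26), a choline phosphodiesterase that marks cells just beginning to myelinate. They were shallowest for Car2 (0.44), the actin-severing protein gelsolin Gsn (0.45), the pteridine reductase Qdpr (0.56), Sox10 (0.60) and the small heat shock protein Cryab (0.63). Car2, Gsn, Qdpr and Cryab are also known from other brain cells, and Sox10 is active in precursors as well. Per length, Mbp was the most abundant member at 1006 TPM ± 485 (SD, n = 24), followed by Mobp at 220.2 ± 116 and Qdpr at 195 ± 45.7, and Enpp6 was the least abundant at 2.11 ± 1.23.

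In the structural genes the group medians differed less than the mice within a group. Mbp ranged from 481 to 1175 CPM (median 728) in Grn+/+ mice without the transgene and from 804 to 1573 (median 1062) with it. In Grn+/- mice it ranged from 529 to 2157 (median 702) without the transgene and from 501 to 1341 (median 871) with it. The transgenic Grn+/+ group had the highest median and the highest minimum, yet its values overlapped those of every other group.

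Mag, the adhesion protein facing the axon, ranged from 41.9 to 107 CPM (median 64.6) in Grn+/+ mice, 70.2 to 159.6 (96.6) in transgenic Grn+/+ mice, 44.9 to 204 (65.3) in Grn+/- mice and 38.9 to 111 (73.4) in transgenic Grn+/- mice. Mog, on the outermost layer, ranged in the same order of groups from 10.7 to 26.5 (median 15.6), 16.4 to 40.7 (25.4), 11.6 to 49.5 (15.5) and 9.74 to 27.0 (19.1). Mobp ranged from 105 to 321 (184), 214 to 474 (309), 113 to 643 (167) and 119.6 to 390.0 (227). For these 3 genes, as for Mbp, the top of the Grn+/- range without the transgene was the library of replicate 2. Replicate 6 of that group was also above every Grn+/+ library without the transgene. It had 126 CPM for Mag, 29.4 for Mog, 393 for Mobp and 1363 for Mbp.

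Mal, a lipid-raft protein that sorts myelin cargo, ranged from 53.1 to 125 CPM (median 77.4), 86.5 to 207 (123), 57.9 to 237 (74.4) and 56.8 to 134 (95.1), in the same order. Cldn11, which seals the sheath with tight junctions, ranged from 33.8 to 90.1 (52.3), 59.1 to 130.3 (80.5), 38.0 to 155 (50.5) and 36.7 to 95.2 (63.2). Hapln2, a link protein of the hyaluronan matrix at nodes of Ranvier, ranged from 6.58 to 14.7 (9.58), 11.2 to 24.7 (16.5), 5.93 to 26.7 (10.2) and 7.27 to 15.5 (12.2). Neighbouring groups overlapped in all 3 genes, and the order of the group medians placed transgenic Grn+/+ mice first and transgenic Grn+/- mice second.

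In the lipid and metabolic genes, too, transgenic Grn+/+ mice had the highest median. Ugt8a, which makes galactosylceramide, the main glycolipid of myelin, ranged from 15.3 to 34.8 CPM (median 24.4), 24.1 to 40.1 (29.1), 16.6 to 55.8 (22.2) and 12.1 to 32.1 (22.6). Aspa, which breaks down N-acetylaspartate from neurons to supply acetate, ranged from 3.35 to 8.18 (5.24), 5.67 to 13.3 (7.77), 3.79 to 16.1 (5.40) and 2.37 to 9.20 (6.19). Trf, the iron carrier transferrin, ranged from 84.4 to 198 (116), 132 to 274 (174), 79.3 to 375 (122) and 81.2 to 194 (131). Trf thus had a spread close to that of the structural genes. Apod ranged from 28.5 to 63.3 (43.8), 49.9 to 90.4 (75.0), 32.2 to 104 (58.4) and 26.7 to 89.5 (60.0). Car2 ranged from 87.6 to 114 (95.6), 99.2 to 152 (113), 90.9 to 174 (104) and 93.3 to 128 (103). In both Apod and Car2 the Grn+/+ groups with and without the transgene overlapped.

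Among the regulators, Sox10 ranged from 28.1 to 43.0 CPM (median 31.3), 34.3 to 53.1 (41.9), 28.5 to 65.4 (34.6) and 27.0 to 46.8 (38.5). Myrf, which is needed in mature cells to keep myelin genes on, ranged from 20.48 to 41.9 (28.7), 31.7 to 59.0 (43.0), 20.6 to 78.6 (26.9) and 19.9 to 42.3 (30.8). Myrf followed the common pattern with a slope of 0.98, against 0.60 for Sox10. The genes of newly formed oligodendrocytes were no exception: Enpp6 ranged from 1.79 to 4.404 (2.41), 2.32 to 6.09 (4.69), 1.83 to 9.83 (2.61) and 1.58 to 5.42 (2.83). Bcas1 ranged from 28.5 to 62.8 (41.8), 43.5 to 80.8 (58.6), 30.4 to 111 (39.6) and 27.4 to 69.0 (47.3).

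Anln ranged from 7.27 to 22.0 CPM (median 12.03), 14.50 to 35.2 (21.6), 8.37 to 46.3 (11.9) and 8.03 to 23.3 (14.6). Il33, a nuclear alarmin that oligodendrocytes of the adult brain contain, ranged from 21.7 to 39.7 (27.9), 26.8 to 55.9 (38.7), 21.4 to 71.6 (29.5) and 20.51 to 43.3 (27.8). Cryab ranged from 28.9 to 50.7 (41.4), 38.5 to 69.0 (44.1), 31.6 to 75.7 (41.1) and 30.9 to 49.5 (44.4). Cryab showed the least separation of group medians of these genes, and all groups overlapped.

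On the log2 scale with each gene centred, the mean of the 32 members was -0.24 ± 0.40 (SD, n = 6) in Grn+/+ mice without the transgene and 0.35 ± 0.39 with it. It was 0.01 ± 0.72 in Grn+/- mice without the transgene and -0.12 ± 0.54 with it. The highest libraries were Grn+/- replicate 2 without the transgene (1.21), transgenic Grn+/+ replicate 2 (0.84) and transgenic Grn+/+ replicate 5 (0.77). The lowest were transgenic Grn+/- replicate 6 (-0.78) and Grn+/+ replicate 3 without the transgene (-0.75). The youngest animals, both of 8.19 months and both Grn+/- without the transgene, lay at -0.66 and 0.52, on either side of 0.

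**Figure D2:**
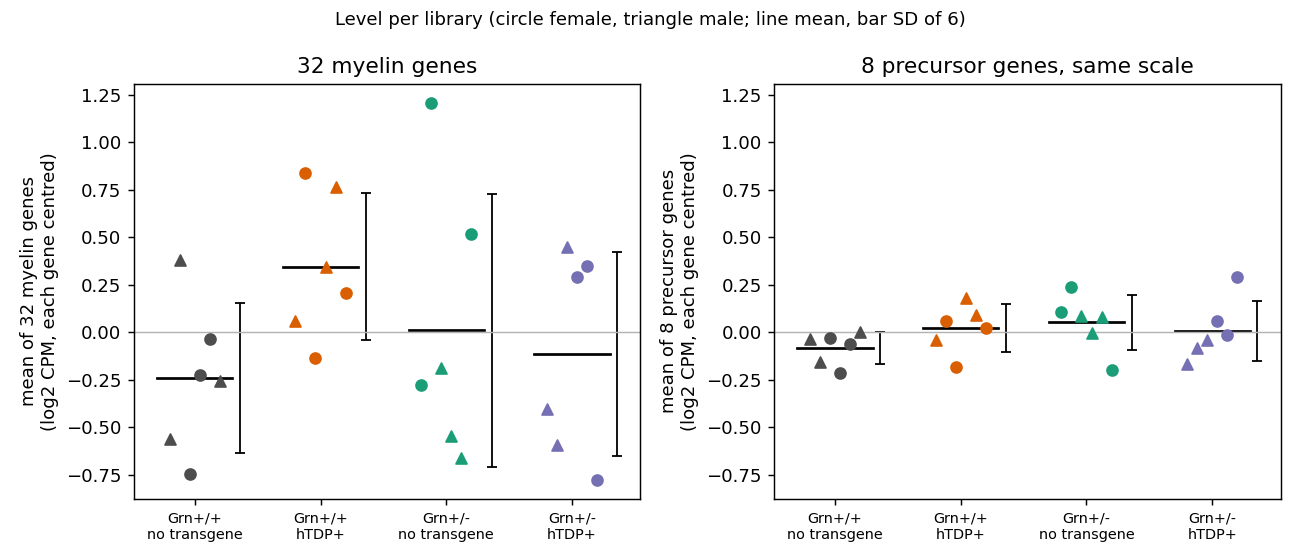
Points are libraries (circles females, triangles males), horizontal lines group means and bars the SD of 6. The left panel shows the mean of the 32 myelin genes on the centred log2 scale. Its libraries ran from -0.78 to 1.21 and its group means from -0.24 to 0.35. The right panel shows, on the same scale, 8 genes of oligodendrocyte precursors. Its libraries ran from -0.22 to 0.29 and its group means from -0.08 to 0.05.

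In Grn+/+ mice the transgenic libraries had higher fitted levels of all 32 members, but none of the 32 was called by edgeR's quasi-likelihood test at a Benjamini-Hochberg adjusted p under 0.05. Over all genes 0.0329% were called in this comparison. The members' median log2 fold change was 0.60 (range 0.24 for Gsn to 0.80 for Anln), against 0.000643 over all genes tested. Unadjusted p-values were under 0.05 for 8 members by edgeR, 5 by DESeq2 and 15 by limma voom, and no member was called by any of the 3 tools. Over all genes 7.83% had an unadjusted edgeR p under 0.05. Apod had the smallest (log2 fold change 0.73 ± 0.28 SE, adjusted p = 0.608), followed by Hapln2 (0.74 ± 0.31) and Mal (0.78 ± 0.33). The others under 0.05 were Car2, Sox10, Tspan2, Mog and Cldn11. The members moved together over the libraries (median r of 0.95 between pairs). Counts of members above 0 or under 0.05, here and below, are therefore not counts of independent results. The count of 8 rested on single libraries: it was 31 without Grn+/+ replicate 2 (no transgene), 27 without transgenic Grn+/+ replicate 3 and 26 without Grn+/- replicate 2 (no transgene), and 1 without transgenic Grn+/+ replicate 2 or 5 or Grn+/+ replicate 3 (no transgene). With any 1 library left out it lay between 1 and 31, and no member was called. The lowest adjusted p of any member was 0.382, over 34 other settings.

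Mbp was at 0.63 ± 0.32 (SE, edgeR adjusted p = 0.640), Mag at 0.66 ± 0.34 and Mobp at 0.77 ± 0.38. Ugt8a was the lipid gene with the largest p (0.36 ± 0.28, unadjusted p = 0.221). By role, the median log2 fold change was 0.66 over the 15 sheath genes, 0.57 over the 7 metabolic genes, 0.54 over the 3 transcription factors, 0.64 over the 2 genes of newly formed cells and 0.51 over the other 5. Without replicate 2 of the transgenic Grn+/+ group, the library with few detected genes, the median over the 32 was 0.52 and all 32 stayed above 0.

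Markers of some other cells also lay above 0 in the same comparison. The choroid plexus and ependyma list, 7 genes of which 5 passed the filter, had 5 of 5 above 0 (median 0.99), and its summed level ranged from 5.15 to 13.01 CPM without and 5.38 to 29.1 CPM with the transgene. Its highest library was transgenic Grn+/+ replicate 2 (29.1 CPM) and its second Grn+/- replicate 2 without the transgene (17.9 CPM), which were also the top pair for the myelin genes. Of its genes, Tmem212 was at 0 in 17 libraries, Ccdc153 in 6 and Folr1 in 2. The mural and meningeal list had 10 of 10 above 0 (median 0.37), with summed levels of 122 to 174 CPM without and 134 to 223 CPM with the transgene. The blood list, 4 globin genes and Alas2, had 5 of 5 above 0 (median 0.55; 11.1 to 30.8 CPM without and 17.9 to 54.2 CPM with the transgene), and the white matter astrocyte list 4 of 5 (median 0.21). No gene of these 4 lists was called. Their part in the myelin values was not tested.

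In Grn+/- mice the transgene comparison gave no call among the 32 members by edgeR, with 0.0219% of all genes called and no unadjusted p under 0.05 by edgeR, DESeq2 or limma voom. Of the members, 1 (Apod, 0.01 ± 0.28) lay above 0, and the median log2 fold change was -0.17. Ugt8a (-0.33 ± 0.28 SE, edgeR adjusted p = 1), Cryab (-0.19 ± 0.20) and Enpp6 (-0.36 ± 0.39) had the smallest p-values. This direction rested on 1 library: without Grn+/- replicate 2 (no transgene), 30 of 32 members lay above 0 with a median of 0.14. It moved the same way, to a median of 0.14, when transgenic Grn+/+ replicate 2 was left out as well. With age fitted as a factor beside sex, the median was -0.56 and none of the 32 lay above 0. The ages of replicates 1, 4, 5 and 6 of Grn+/- mice without the transgene (8.19, 9.14 and 10.56 months) occurred in no other group. The age-factor fit thus took that group's level from replicates 2 and 3 alone, so it also leans on replicate 2.

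Without the transgene, Grn+/- mice had fitted values above those of Grn+/+ mice for all 32 members (median log2 fold change 0.31), and none was called (0.011% of all genes were). No unadjusted p was under 0.05 by edgeR, DESeq2 or limma voom, while 3.41% of all genes had one by edgeR. Car2 had the smallest p (0.26 ± 0.13 SE, edgeR adjusted p = 1), followed by Apod (0.42 ± 0.28) and Enpp6 (0.60 ± 0.40). Without Grn+/- replicate 2 the median was 0.02 and 23 of 32 lay above 0, and with age fitted as a factor the median was 0.69. That age fit, too, took the Grn+/- level from replicates 2 and 3 alone. Markers of other cells had values above 0 here as well: the blood list in 5 of 5 genes (median 1.26, 3 with an unadjusted p under 0.05), the mural and meningeal list in 10 of 10 (0.34), the white matter astrocyte list in 5 of 5 (0.25) and the astrocyte list in 10 of 10 (0.09), with no gene called. Summed blood levels were 11.1 to 30.8 CPM (median 20.2) in Grn+/+ and 10.96 to 150.3 CPM (median 18.0) in Grn+/- mice, and the highest of them, Grn+/- replicates 4 and 1, had member sums of 1740.3 and 1982 CPM, in the lower part of the members' range. The part of these cells in the myelin values was not tested.

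Among transgenic mice the difference was the other way. All 32 members were lower in Grn+/- than in Grn+/+ mice by fitted value (median -0.46), with no call (0.00548% of all genes were called) and no unadjusted p under 0.05 by edgeR, DESeq2 or limma voom. Il33 (-0.47 ± 0.26 SE, edgeR adjusted p = 0.989), Hapln2 (-0.54 ± 0.30) and Anln (-0.68 ± 0.39) had the smallest p-values. The median stayed between -0.65 and -0.32 with any 1 library left out. The count of unadjusted p-values under 0.05 rested on single libraries: it was 13 without transgenic Grn+/- replicate 3 and 5 without transgenic Grn+/+ replicate 3. In the same comparison the choroid plexus and ependyma list had 1 of 5 genes above 0 (median -1.03) and the blood list 5 of 5 (0.78). The microglia list had 9 of 9 above 0 (0.09) and the astrocyte list 9 of 10 (0.04). Medians were below 0 for deep layer (2 of 7 above 0), inhibitory (2 of 6) and striatal neurons (3 of 8), each at -0.04. No gene of these lists was called.

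**Figure D3:**
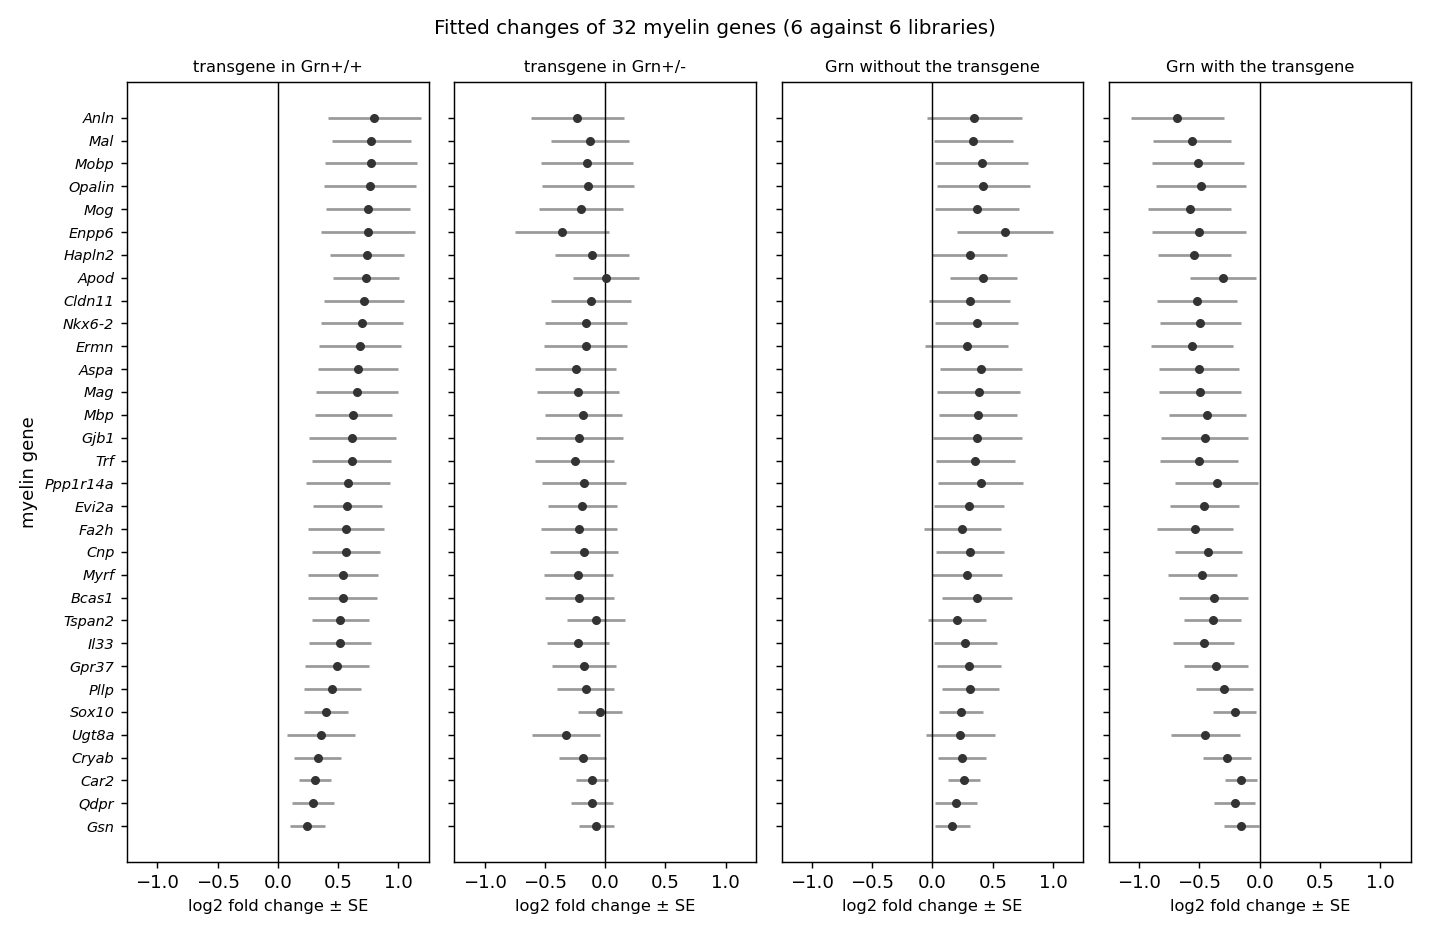
Points are edgeR log2 fold changes of the 32 genes and bars their standard errors, in 4 comparisons of 6 against 6 libraries. All points lie right of 0 for the transgene in Grn+/+ and for Grn without the transgene, and left of 0 for Grn with the transgene, and the bars are wide: none of the 32 was called in any panel.

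The interaction (how far the transgene's log2 change in Grn+/- mice exceeded its change in Grn+/+ mice) was below 0 for all 32 members, with a median of -0.78 (range -1.10 for Enpp6 to -0.32 for Gsn). None was called by edgeR, nor by DESeq2 or limma voom, and edgeR called 0% of all genes. An unadjusted p under 0.05 was found for 1 member by edgeR, 1 by DESeq2 and 0 by limma voom. The edgeR member was Car2, at -0.42 ± 0.19 (SE, edgeR adjusted p = 1, unadjusted p = 0.0378). Over all genes 2.38% had an unadjusted p under 0.05. Il33 (-0.74 ± 0.36) and Enpp6 (-1.10 ± 0.55) came next. That count of 1 member by edgeR also rested on single libraries and covariates: it was 30 without Grn+/+ replicate 2 (no transgene), 24 without transgenic Grn+/- replicate 3, 18, 13 and 10 without Grn+/- replicates 5, 4 and 1 (no transgene), 16 without transgenic Grn+/+ replicate 3, 0 without Grn+/- replicate 2 (no transgene), and 10 with linear age and 9 with age as a factor. No member was called in any of these fits. The choroid plexus and ependyma list had a median of -0.79 (1 of 5 above 0), the blood list -0.36 (0 of 5) and the mural and meningeal list -0.25 (1 of 10). The median was -0.48 without Grn+/- replicate 2 (no transgene), -0.38 without that library and transgenic Grn+/+ replicate 2, and -1.16 with age fitted as a factor (the groups differ in their age range). The age-factor fit took the level of Grn+/- mice without the transgene from replicates 2 and 3 alone. These 4-group comparisons share libraries, so their signs are not independent of each other.

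Averaged over both Grn genotypes, the transgene gave fitted values above 0 for all 32 members (median 0.20), with no call against 0.11% of all genes and no unadjusted p under 0.05 by edgeR, DESeq2 or limma voom. Apod was highest (0.37 ± 0.19 SE, edgeR adjusted p = 0.666). Without Grn+/- replicate 2 (no transgene) the median was 0.37 with 11 unadjusted p-values under 0.05, without Grn+/+ replicate 2 (no transgene) it was 0.32 with 1, and without transgenic Grn+/- replicate 3 it was 0.12. With age as a factor it was 0.03, with 25 of 32 above 0. The age-factor fit took the level of Grn+/- mice without the transgene from replicates 2 and 3 alone. Averaged over the transgene, the Grn effect was above 0 for 7 of 32 (median -0.05), with no call against 0.0219% of all genes and no unadjusted p under 0.05 by the same 3 tools. The direction of this average turned with the setting: 31 of 32 lay above 0 with age as a factor (median 0.13), 23 of 32 without Grn+/+ replicate 2 (no transgene; 0.04) and 0 of 32 without Grn+/- replicate 2 (no transgene; -0.23).

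Female mice had fitted values above those of males for all 32 members, with a median log2 difference of 0.24. None was called, against 0.0713% of all genes, and no unadjusted p was under 0.05 by edgeR, DESeq2 or limma voom. By edgeR, 5.99% of all genes had an unadjusted p under 0.05. The summed level ranged from 1455 to 5823 CPM in the 12 females (median 2645) and from 1554 to 4340 CPM in the 12 males (median 2104). Both libraries with the highest sums were females, and the third, a male, was close to the second (4340 against 4355 CPM). Without that pair of females the median difference was 0.03, with 22 of 32 above 0. This setting removes high values from females alone. The choroid plexus and ependyma list had 4 of 5 genes above 0 in the same comparison (median 0.82, 4 with an unadjusted p under 0.05, none called), with sums of 4.98 to 29.1 CPM in females and 5.19 to 10.3 CPM in males, and its part in the difference was not tested.

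Mbp is transcribed from more than 1 start. It spans chr18:82475146-82585637 on the plus strand in the GENCODE M21 annotation of GRCm38, and its 16 annotated transcripts fall into a class that begins at the upstream end of the locus (the golli transcripts, which are known from neurons and immune cells as well as oligodendrocytes) and a class that begins downstream, from 82554470 on, and encodes the classic myelin basic proteins. Of the reads assigned to Mbp, Mbp-211 (5 exons, 384 coding bases, 128 amino acids) held 63.2% ± 4.91 (SD, n = 24), Mbp-212 (6 exons, 169 amino acids) 17.3% ± 1.01 and Mbp-215 (154 amino acids) 3.83% ± 0.477. Mbp-204 (150 amino acids) held 1.05% ± 0.164. These 4 start downstream and end in the shared last exon, at 82584112. From the upstream class, Mbp-205 (4 exons, 195 amino acids) held 10.8% ± 5.13 and Mbp-201 (7 exons, 250 amino acids) 2.17% ± 0.530. No other transcript reached a mean of 1%.

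The isoforms of the classic class differ in their exons: Mbp-215 alone of the 6 has the exon at 82561778-82561855 (78 bases), Mbp-212 alone has the exon at 82578936-82579058 (123 bases), and Mbp-204 extends a 33-base exon to 99 bases, from 82575535. Within the downstream class Mbp-211 varied little, at 70.6% to 75.3% of the reads across the 24 libraries. The smaller shares varied more in proportion: Mbp-212 made up 16.9% to 22.0%, Mbp-215 3.45% to 5.88% and Mbp-204 0.943% to 1.63%.

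The start classes behaved differently across mice. Downstream-start transcripts summed to 356 to 2043 CPM, a 5.74-fold range, and upstream-start transcripts to 84.2 to 125 CPM, a 1.48-fold range. Upstream-start levels were 106 ± 11.03 CPM (SD, n = 6) in Grn+/+ mice, 105 ± 3.54 in transgenic Grn+/+ mice, 104 ± 11.3 in Grn+/- mice and 100.1 ± 10.7 in transgenic Grn+/- mice. Downstream-start levels were 636 ± 258, 1049 ± 335, 907 ± 636 and 767 ± 362 CPM in the same order. Against the mean of the other 31 members over the 24 libraries, the downstream class had a slope of 1.27 and r = 0.99 (Spearman's rho 0.98), and the upstream class a slope of -0.02 and r = -0.09 (rho -0.08). The variation that Mbp shared with the other members lay in its downstream-start reads, while the upstream-start reads stayed near 104 CPM at every myelin level. One limit of the assignment is that the 4384-base last exon of Mbp-205, from 82554320 to 82558703, covers the first exon of the classic transcripts, so reads there are divided by Salmon's estimate.

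**Figure D4:**
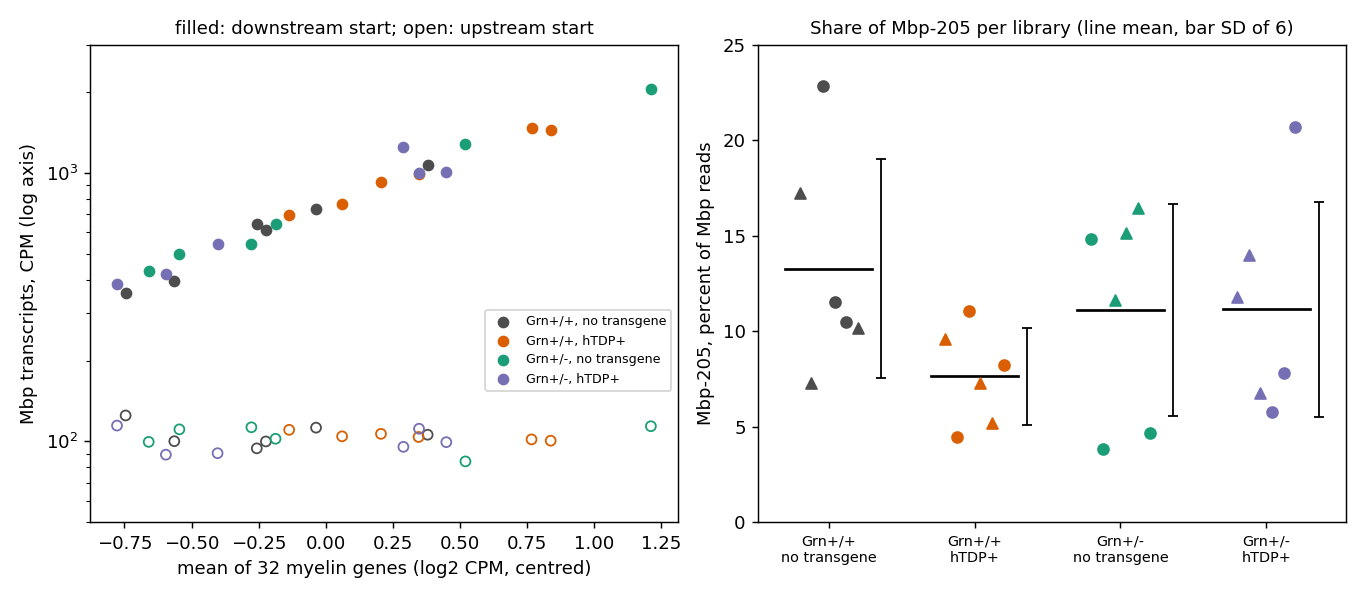
Left, CPM of downstream-start (filled) and upstream-start (open) Mbp transcripts on a log axis against the mean of the 32 myelin genes, 1 pair of points per library: filled points climb from 356 to 2043 CPM and open points stay between 84.2 and 125 CPM. Right, the percent of Mbp reads assigned to Mbp-205 per library with group mean and SD, which runs from 3.85% to 22.9%.

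Mbp-205, of the class with the narrow range, took a large share of Mbp reads in libraries with little myelin RNA and a small one in libraries with much. Its share ranged from 7.29% to 22.9% (median 11.01%) in Grn+/+ mice, 4.47% to 11.1% (7.77%) in transgenic Grn+/+ mice, 3.85% to 16.5% (13.2%) in Grn+/- mice and 5.76% to 20.7% (9.80%) in transgenic Grn+/- mice. Groups overlapped. Exact two-sided permutation tests were run on 6 transcripts in 4 comparisons of 6 against 6, where the smallest possible p is 0.00216. None of the 24 passed a Benjamini-Hochberg adjusted p under 0.05, and 3 had an unadjusted p under 0.05. The Mbp-205 share was 7.63% ± 2.53 (SD, n = 6) in transgenic against 13.3% ± 5.72 in non-transgenic Grn+/+ mice (exact permutation p = 0.0368, adjusted p = 0.286). The Mbp-215 share was 4.10% ± 0.491 against 3.43% ± 0.334 in the same mice (exact permutation p = 0.0303, adjusted p = 0.286). It was 4.12% ± 0.454 in Grn+/- mice against the same 3.43% without the transgene (exact permutation p = 0.013, adjusted p = 0.286). These shares are of all Mbp reads, so they also depend on the upstream class. Of downstream-start reads alone, Mbp-215 made up 4.12% ± 0.691 in Grn+/+ mice without the transgene and 4.53% ± 0.477 with it. In Grn+/- mice without the transgene it made up 4.77% ± 0.690, and the ranges of these groups overlapped.

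In the transcript usage test across genes, edgeR's likelihood-ratio fit called Mbp in the interaction (adjusted p = 0.00254), where 0.0225% of 8878 genes were called, with Mbp-205 at a relative log2 change of 0.84. The call was not made by limma's diffSplice (adjusted p = 0.753) or by a quasi-likelihood fit in edgeR (adjusted p = 1). It was also lost (adjusted p 0.0532 to 1) when any 1 of 5 libraries was left out: Grn+/- replicate 2 and Grn+/+ replicates 1 and 3, all without the transgene, transgenic Grn+/+ replicate 5, or transgenic Grn+/- replicate 6. Mbp was not called for the average transgene effect (edgeR adjusted p = 0.126; 0.146% of genes called), although leaving out 1 of 7 libraries gave an adjusted p of 2.67e-05 to 0.0485 (Grn+/- replicates 2 and 6 and Grn+/+ replicates 2 and 6 without the transgene, transgenic Grn+/+ replicate 3, and transgenic Grn+/- replicates 2 and 6), nor for the average Grn effect (edgeR adjusted p = 1; 0.0676% called). The test sets Mbp-205 against Mbp-211 and Mbp-212, whose levels varied with those of the other myelin genes, and the part of that variation in the call was not tested.

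The other markers of mature oligodendrocytes varied with the 32 members. A second list of 32 oligodendrocyte genes that shares none with the first had a mean level correlated at r = 0.99 with that of the members over the 24 libraries. In transgenic against non-transgenic Grn+/+ mice all 32 of its genes lay above 0 (median 0.39), 11 had an unadjusted edgeR p under 0.05 and none was called. Of all genes, 7.83% had such a p. Cd9 (0.35 ± 0.12 SE), a tetraspanin, and Olig1 (0.32 ± 0.11), a basic helix-loop-helix regulator of the lineage, were among the 11. In the interaction all 32 lay below 0 (median -0.52), 5 with an unadjusted p under 0.05, and none was called. There the share of all genes with such a p was 2.38%.

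Earlier stages of the lineage followed the members only weakly from mouse to mouse. The list of 8 precursor genes (Pdgfra, Cspg4, C1ql1, Lhfpl3, Matn4, Cacng4, Vcan and Olig2) summed to 149 to 214 CPM over all libraries, and its mean had r = 0.13 with the members. The 9 genes of committed precursors, among them Gpr17 and Bmp4, summed to 379.6 to 448 CPM with r = 0.26. In transgenic against non-transgenic Grn+/+ mice the median log2 fold change was 0.07 for the precursor list (7 of 8 above 0, Olig2 at 0.38 ± 0.12) and 0.08 for the committed list (7 of 9 above 0), with no gene called in either. Olig2 is also expressed by mature cells and stands in the second oligodendrocyte list too. Signs in other comparisons were often those of the members, with smaller medians. Without the transgene, 8 of 8 precursor genes (median 0.11) and 7 of 9 committed genes (0.06) were higher in Grn+/- mice. In the interaction 1 of 8 (-0.09) and 2 of 9 (-0.10) lay above 0. For the transgene in Grn+/- mice 2 of 8 and 3 of 9 did. Among transgenic mice 6 of 8 precursor genes, unlike the members, and 3 of 9 committed genes were higher in Grn+/-. Single genes could differ from these medians. The lowest precursor value in the interaction was -0.63, and the smallest unadjusted edgeR p of that list was 0.00122, with no gene called. The second oligodendrocyte list, which also holds Olig2, had the same smallest p.

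Of the lists for other cells, deep layer projection neurons came closest to the members (r = 0.63, and 0.71 without the pair of highest libraries). Their 7 measured genes, among them Fezf2, Foxp2 and Hs3st4, summed to 297 to 533 CPM, a 1.80-fold range against 4.002-fold for the members. By group this list did not follow the members: its sums were 297 to 533 CPM (median 390.3) in Grn+/+ mice, 343 to 453 (387) in transgenic Grn+/+ mice, 321 to 399.5 (362) in Grn+/- mice and 318 to 503 (361) in transgenic Grn+/- mice. Striatal neuron genes had r = 0.55 (153 to 226 CPM), and the choroid plexus and ependyma list r = 0.47, which was 0.03 without the pair of highest libraries. Astrocyte (r = -0.43), excitatory neuron (-0.35) and microglia (-0.31) lists ran the other way. Endothelial (-0.16), mural and meningeal (-0.01), white matter astrocyte (-0.09), blood (-0.11) and inhibitory neuron (0.14) lists had values nearer 0. The part of the depth or extent of the dissected cortex in these levels was not tested.

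**Figure D5:**
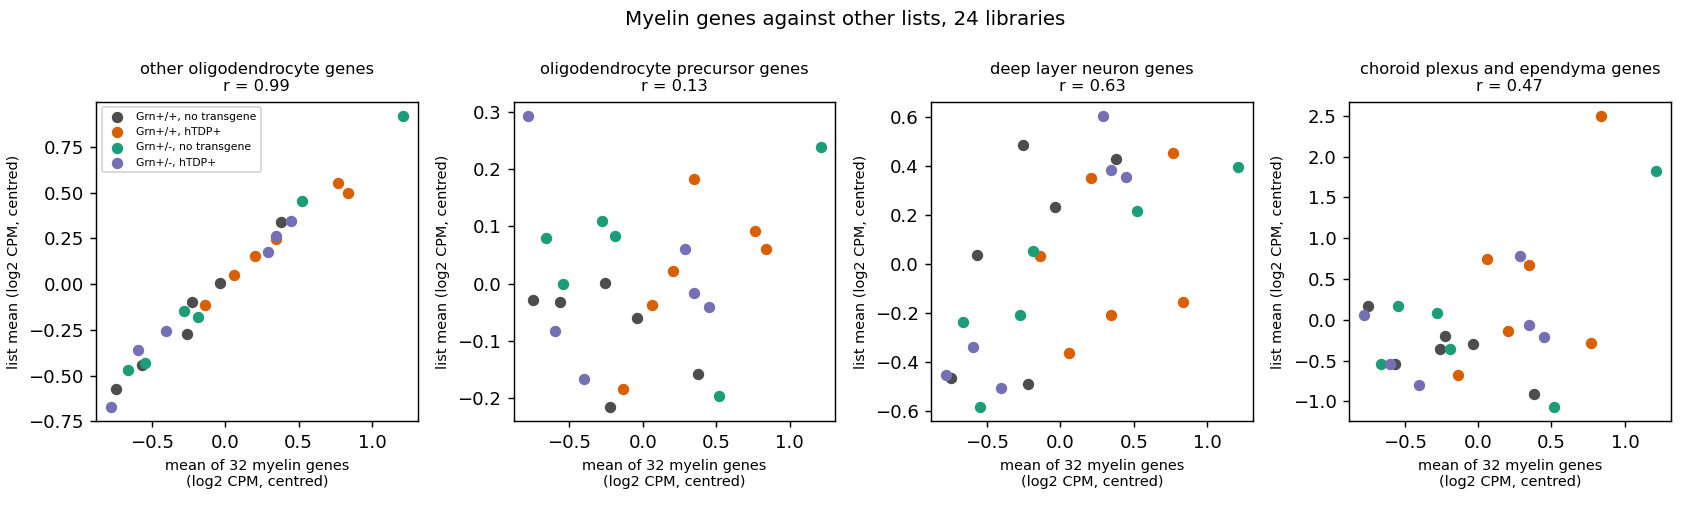
Each panel plots the mean centred log2 CPM of a list against that of the 32 myelin genes over 24 libraries, coloured by group. The second oligodendrocyte list lies on a line (r = 0.99), the precursor list is flat (r = 0.13), deep layer neuron genes are looser (r = 0.63), and the choroid plexus and ependyma panel is led by its pair of highest libraries (r = 0.47).

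Of 9786 other genes with a mean of at least 10 CPM, those whose log2 CPM, centred on the group means, followed the members most closely over the 24 libraries included Tmem88b (r = 0.99), Ttyh2 (0.99), Tmem63a (0.99), Unc5b (0.98), Arsg (0.98), Ndrg1 (0.98), Myo1d (0.98) and Plekhh1 (0.98). Ttyh2, Unc5b and Myo1d stand in none of the lists used here. Unc5b, a netrin receptor, ranged from 17.1 to 53.8 CPM, a 3.15-fold range. The lowest correlations were those of Synpo (-0.85), Grasp (-0.84), Sgsm2 (-0.83), Crtc1 (-0.83) and Ppp1r9b (-0.82). Synpo, an actin-associated protein of dendritic spines, ranged from 307 to 424 CPM, and Ppp1r9b, the spine scaffold spinophilin, from 1279 to 1770.3 CPM, each a 1.38-fold range. Sgsm2 (1.37-fold) and Crtc1 (1.41-fold) had similar ranges. Grasp ran from 39.0 to 92.6 CPM, a 2.37-fold range, wider than that of the member Car2 (1.99-fold). The median range of the members was 4.50-fold.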

How the data were processed

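Frontal cortex RNA of 24 mice in 4 genotype groups was analysed. Per the file headers, the authors' Salmon files give expected counts (estimated reads, which need not be whole), TPM and effective length for each of 149444 transcripts. Tools named in the submitters' processing notes, with no version, are Salmon, STAR, DESeq2 and SAMtools. The genome build is not given in the sources used here, and it is unclear whether the libraries keep strand, so genes that overlap on opposite strands may share reads. Identifiers were looked up in GENCODE M21 (GRCm38), which placed 138032 transcripts in 52352 genes; 1.17% to 1.66% of reads lay on unplaced transcripts. TPM, which the authors scaled per library, was summed per gene only to compare levels between genes.

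Deposited expected counts were summed per gene, rounded and tested with edgeR 4.0.16 in R 4.3.3 (quasi-likelihood test, TMM scaling, default filter, a term per group and for sex), over all genes. CPM used TMM-scaled library size, with a prior count of 1 for log2 values. Transcript usage was tested with diffSpliceDGE on transcripts with at least 5% of their gene, and shares by exact permutation in scipy 1.17.1. All p-values are two-sided. Alternatives were DESeq2 1.42.0, RLE scaling, limma 3.58.1 voom, no filter, length-scaled TPM counts, other covariates, only the groups compared, and leaving out libraries. The code was tested on simulated data.

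The members and lists were chosen with earlier results of these data known. Values per group are given for 19 genes picked by role, which include the 3 members of smallest p in the interaction and in each transgene comparison; genes alike in pattern are the 10 of highest correlation, of which 8 are reported here, and 5 of lowest correlation; Gpr17, Bmp4, Cd9, Olig1, Fezf2, Foxp2 and Hs3st4 were named as examples after their values were seen.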

Additional observations from a re-analysis of the deposited data

Results flagged for a closer look

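Among 160 groups of 6 values (each member's log2 CPM, each Mbp transcript's share and both Mbp start classes, in each group), 2 held a value far from the other 5, where chance would flag about 1 in 20. Ppp1r14a, an inhibitor of myosin phosphatase, had its highest transgenic Grn+/+ value in replicate 5 (log2 CPM 3.61, not centred). The mean of all members in that library, on the centred log2 scale, was 0.77, so these values are not comparable. The Mbp-215 share had its highest transgenic Grn+/- value in replicate 3 (4.21% of Mbp reads, against a group median of 3.58%). The Mbp transcript usage result differed between the Grn genotypes in the transgene comparison by edgeR's likelihood-ratio interaction test (adjusted p = 0.00254). It was not called by limma (adjusted p = 0.753) or by edgeR's quasi-likelihood fit (unadjusted p = 0.285).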

How the results depend on the processing

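No member was called in any of the 8 comparisons under any of the 267 alternative results computed. The medians moved by less than the SD between mice (0.528 on the log2 scale), which is wider than most of the medians themselves and so is no sign of their stability. The spread between mice limits the precision: in the transgene comparison in Grn+/+ mice the standard error of a member's log2 fold change ran from 0.13 (Car2) to 0.39 (Enpp6). In some comparisons the sign of the median was set by single libraries: without Grn+/- replicate 2 (no transgene) the transgene median in Grn+/- was 0.14 in place of -0.17. Leaving out 1 library in turn gave medians of 0.44 to 0.86 for the transgene in Grn+/+, -0.33 to 0.14 in Grn+/-, 0.02 to 0.52 for Grn without and -0.65 to -0.32 with the transgene, and -0.99 to -0.48 for the interaction. The average Grn effect ran from -0.23 to 0.04. With age as a factor the medians were 0.13 for the average Grn effect, 0.03 for the average transgene effect, -0.56 for the transgene in Grn+/-, 0.69 for Grn without the transgene and -1.16 for the interaction. These age-factor values rest on replicates 2 and 3 of Grn+/- mice without the transgene, whose other ages no other group shared. The Mbp usage call in the interaction (adjusted p = 0.00254) went to 0.753 by limma diffSplice, 1 by a quasi-likelihood fit and 1 without transgenic Grn+/+ replicate 2 and Grn+/- replicate 2 together, a setting chosen after seeing the data. Leaving out 1 library at a time, also added after seeing the data, gave 2.67e-06 to 1. For the average transgene effect the usage result was 0.000209 without that pair of libraries and 2.67e-05 to 1 with 1 library left out. The cause was not tested. The 312 alternative Mbp share results stayed past no threshold, and 8 of the 10 genes most alike in pattern were the same without centring. No paired analysis was possible because the replicate numbers follow accession order and the labels give mouse numbers only.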
